A study of Mus musculus with 35 samples.

Results

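A set of 6 genes out of 18820 measured was followed through every group of a mouse liver cancer series: Ctse, Cabyr, Cplane1, Dsg1c, Plekhb1 and Cyp46a1. They were chosen on their array values in MYC tumors or in the non-tumorous liver (NTL) of the MYC model, which lay far from the shared controls in a near on-off fashion. Every value of the MYC groups against those controls or against each other is therefore a description of the members and carries no test. Each member was read from the brightest of the probe sets annotated to its symbol alone.

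The series measured liver RNA of 35 mouse samples on Affymetrix Mouse Gene 1.1 ST arrays, 1 array per sample, on a log2 scale on which 1 unit is a doubling. In the DEN model, mice had received the liver carcinogen diethylnitrosamine at 10 mg per kg on day 15 of life and were examined at 9 months, giving 5 NTL and 5 tumor arrays beside 5 arrays of untreated controls. In the LT model, tg1223 mice overexpressed both lymphotoxin chains, alpha and beta, specifically in liver over a follow-up of 12 months, giving 5 NTL and 3 tumor arrays. In the MYC model, TRE-MYC mice had been crossed to LAP-tTA mice, in which a liver-specific promoter drives the tetracycline transactivator. They were kept on doxycycline chow at 200 mg per kg, which holds MYC off, until 8 weeks of age and then taken off it, giving 3 NTL and 5 tumor arrays. The LT and MYC groups shared 4 arrays of transgene-negative controls, called shared controls below. No strain is named in the labels, and the age of the MYC mice at sampling is not given there. All 3 MYC NTL samples have mouse identifiers starting with WT, and the labels do not settle whether this tissue came from tumor-bearing MYC mice or from wild-type mice. The 5 DEN tumor arrays carry 3 mouse identifier stems and the 3 LT tumor arrays carry 2, so some tumors came from the same animal, while each array entered the fit as a sample of its own.

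Array medians lay between 5.59 and 5.73 and array first quartiles between 4.13 and 4.24. A value near the first quartile is close to the lower limit of the arrays. Hepatocyte markers, the defining genes of liver parenchyma such as Alb and Apoa1, averaged 12.52 to 13.27 on every array. Xist, the X-inactivation RNA of female cells, exceeded 9 on 1 of 5 DEN control arrays, 1 of 4 shared control arrays, 4 of 5 LT NTL arrays, 3 of 3 LT tumor arrays, and on no array of the MYC or other DEN groups. The labels call control mice sex-matched, so DEN control replicate 3, the one with high Xist, stands apart from the other DEN arrays, and values that rest on it are given with and without it.

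The 6 genes belong to unrelated families and most are best known outside the liver. Cathepsin E, the product of Ctse, is an aspartic protease of the endosomes, abundant in gastric epithelium and in some immune cells. Cyp46a1 encodes cholesterol 24-hydroxylase, which turns cholesterol into an oxysterol and is known mainly from neurons, where it clears cholesterol from the brain. Cabyr encodes a calcium-binding protein of the fibrous sheath of the sperm tail. Dsg1c encodes a desmoglein, a cadherin of the desmosomes that hold stratified epithelial cells together. Plekhb1 encodes a membrane-associated protein with a pleckstrin homology domain, first known from photoreceptors. Cplane1 encodes a scaffold of the CPLANE complex, which brings the intraflagellar transport machinery to the base of primary cilia. MYC is a transcription factor that binds E-box motifs and drives genes of ribosome production and growth.

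The sequences upstream of the members' start sites are shown because the model switches on a transcription factor with a known motif. Of the 6 members, 3 matched the RefSeq promoter table of build GRCm38.p6. The 250 bases before the start site are given 5′ to 3′ on the gene's strand, with matches to the GC box GGGCGG or the CCAAT box, on either strand, in capitals. The Cyp46a1 window lies at chr12:108334066-108334315 on the plus strand, the Plekhb1 window of the first listed start site at chr7:100662395-100662644 on the minus strand, and the Cplane1 window at chr15:8168856-8169105 on the plus strand.
Cyp46a1: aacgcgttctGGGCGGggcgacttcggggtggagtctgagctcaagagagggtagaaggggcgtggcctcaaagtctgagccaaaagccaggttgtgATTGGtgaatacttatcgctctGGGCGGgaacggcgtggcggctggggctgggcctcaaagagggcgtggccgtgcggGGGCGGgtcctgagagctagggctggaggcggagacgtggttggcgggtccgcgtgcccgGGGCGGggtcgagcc
Plekhb1: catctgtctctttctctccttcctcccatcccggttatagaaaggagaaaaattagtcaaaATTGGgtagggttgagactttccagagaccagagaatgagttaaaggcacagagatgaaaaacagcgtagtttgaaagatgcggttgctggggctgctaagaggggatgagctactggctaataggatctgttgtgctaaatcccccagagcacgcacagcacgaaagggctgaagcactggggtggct
Cplane1: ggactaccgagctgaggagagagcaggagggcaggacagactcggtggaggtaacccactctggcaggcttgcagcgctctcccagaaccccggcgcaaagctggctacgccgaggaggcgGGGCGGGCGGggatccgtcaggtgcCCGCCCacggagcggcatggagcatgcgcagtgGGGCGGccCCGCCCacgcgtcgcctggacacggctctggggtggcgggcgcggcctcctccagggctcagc
Cyp46a1 held 4 GC boxes and 1 CCAAT box, and its window was 67.6% G or C. Cplane1 held 5 GC boxes, some of which share letters, at 72.8% G or C. Plekhb1 held 1 CCAAT box and no GC box, at 48.4% G or C. The E-box CACGTG, searched on both strands, was in none of these windows. Of 32851 RefSeq windows of the same length, 6.02% held this E-box, 32.7% the GC box and 33.8% the CCAAT box. These matches are letters in a window, not binding sites. Whether the probe set used for Cplane1 reads the gene at this window was not tested.

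Ctse was high in both tissues of the MYC model, tumor and NTL. The 5 MYC tumors read 10.58, 10.92, 10.45, 10.81 and 10.51, the 3 MYC NTL arrays 9.47, 10.16 and 10.13, and the 4 shared controls 6.25, 6.26, 5.51 and 6.02. Every MYC array lay above every shared control, and the tumors lay above the NTL arrays. The mean difference from shared controls was 4.65 ± 0.54 (SE) for tumors, a 25.0-fold difference, and 3.91 ± 0.61 for NTL, a 15.1-fold difference. The LT livers sat with the shared controls, at 5.36 to 5.87 in NTL and 6.86, 5.94 and 5.84 in tumors. The DEN livers spanned the gap. DEN NTL read 9.07, 9.07, 9.43, 9.95 and 8.93, DEN tumors 7.09, 7.40, 8.74, 6.48 and 8.38, and the untreated DEN controls 8.46, 8.31, 10.67, 5.92 and 6.74. Untreated control livers of the DEN experiment thus ran from the level of the shared controls to that of MYC tumors, with an SD of 1.82 (n = 5) against 0.35 (n = 4) in the shared controls. The array at 10.67 was DEN control replicate 3, the one with high Xist.

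Cyp46a1 was high in MYC NTL and low in MYC tumors. The MYC NTL arrays read 9.70, 9.82 and 10.04, the shared controls 7.78, 8.00, 7.25 and 6.36, and the MYC tumors 5.74, 5.45, 6.11, 5.38 and 5.63. All 3 NTL arrays lay above every other array of the series, and all 5 tumors lay below every shared control. NTL exceeded the shared controls by 2.51 ± 0.26, a 5.69-fold difference, tumors lay 3.21-fold under them with a difference of -1.68 ± 0.23, and tumors lay 18.3-fold under NTL. DEN controls (6.20 to 6.72), DEN NTL (6.42 to 6.91) and LT NTL (6.18 to 7.28) overlapped. DEN tumors at 5.25 to 5.60 and LT tumors at 5.60, 5.61 and 6.11 joined the MYC tumors at the bottom of the order, and neighbours among these 3 tumor groups overlapped.

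Cabyr was high only in the 3 MYC NTL arrays among the 35, at 9.65, 9.40 and 9.31. The shared controls read 5.75, 6.21, 4.91 and 5.96, and the MYC tumors 5.75, 5.15, 6.64, 5.45 and 4.59. MYC tumors thus spanned the range of the controls, and the NTL arrays stood clear of both. The NTL mean exceeded the shared controls by 3.74 ± 0.35, a 13.4-fold difference, and the MYC tumors by 15.3-fold, while tumors differed from controls by -0.19 ± 0.31. In the other models all groups overlapped with their neighbours in the order of means, with DEN controls at 4.89 to 6.21, DEN NTL at 4.78 to 5.27, DEN tumors at 4.59 to 4.90, LT NTL at 4.31 to 5.83 and LT tumors at 4.85 to 4.96.

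Dsg1c was higher by steps in MYC NTL and in MYC tumors. Shared controls read 5.89, 6.04, 5.32 and 5.63, MYC NTL 7.28, 7.43 and 7.19, and MYC tumors 8.97, 8.51, 9.08, 9.81 and 9.12. The 3 groups did not overlap, and the differences were 1.58 ± 0.64 for NTL and 3.38 ± 0.56 for tumors against shared controls, 2.98-fold and 10.4-fold. DEN tumors came next after MYC tumors, at 8.06, 7.07, 8.08, 6.40 and 8.68, and overlapped with both MYC groups. Their NTL read 5.81, 6.08, 6.07, 5.80 and 5.63, and the untreated controls 7.96, 6.12, 5.26, 5.04 and 5.73, with 1 control at the level of the tumors. LT tumors were scattered over the whole range at 6.51, 8.36 and 3.92, an SD of 2.23 (n = 3), while LT NTL read 5.48 to 6.53. Mice carry near-identical Dsg1 copies, and a second probe set annotated to Dsg1a, Dsg1b and Dsg1c together showed differences of 3.16 in MYC tumors and 1.62 in MYC NTL against shared controls. A probe set annotated to Dsg1b alone differed from shared controls by 0.13 ± 0.11 in MYC tumors and by -0.06 ± 0.13 in MYC NTL. Dsg1a had no probe set of its own, so the signal could not be assigned to Dsg1c alone. Which copies each probe set reads was not tested.

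Plekhb1 ran the other way. Shared controls read 9.34, 9.50, 9.28 and 9.47, MYC NTL 8.21, 8.19 and 7.98, and MYC tumors 5.33, 5.28, 4.76, 7.27 and 6.02. Again the 3 groups did not overlap. NTL lay -1.27 ± 0.32 from the shared controls, 2.41-fold lower, and tumors -3.66 ± 0.29, 12.6-fold lower. DEN controls (8.98 to 9.41), DEN NTL (9.27 to 9.56) and LT NTL (8.76 to 9.66) shared the level of the shared controls. DEN tumors read 7.34, 6.42, 7.12, 7.17 and 7.16 and LT tumors 8.69, 7.98 and 7.81. Tumors of all 3 models thus lay under every NTL and control array of the DEN and LT experiments, and MYC NTL sat among the LT tumors.

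Cplane1 was high in MYC tumors by the probe set used, with 10.37, 9.39, 9.85, 11.47 and 8.23 against 6.18, 6.32, 5.99 and 6.03 in shared controls and 5.79, 5.66 and 5.77 in MYC NTL. Tumors exceeded shared controls by 3.73 ± 0.33, a 13.3-fold difference, and varied among themselves with an SD of 1.20 (n = 5). NTL differed from controls by -0.39 ± 0.38, and its arrays lay just under the controls. All DEN and LT arrays lay between 5.75 and 7.04.

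This on-off pattern was seen in 1 of the 3 probe sets annotated to Cplane1. Probe sets 10422892 and 10422912 differed between MYC tumors and shared controls by 0.81 and 0.88, which is 1.75-fold and 1.84-fold, against 3.73 for probe set 10570002. Between MYC NTL and shared controls their differences were -0.001 and 0.005. Probe set 10570002 became the brightest of the 3 through its MYC tumor values, so the choice of probe set and the size of the difference are not independent. Among the 10 probe sets with the nearest identifiers and a gene of known position, 8 lay on chromosome 8 for probe set 10570002, whereas for each of the other 2 probe sets 9 of 10 lay on chromosome 15, where RefSeq places Cplane1. For the probe sets of the other 5 members, 6 to 10 of 10 lay on the member's own chromosome. The probes' own positions were not used here, and what probe set 10570002 reads was not tested.

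**Figure D1:**
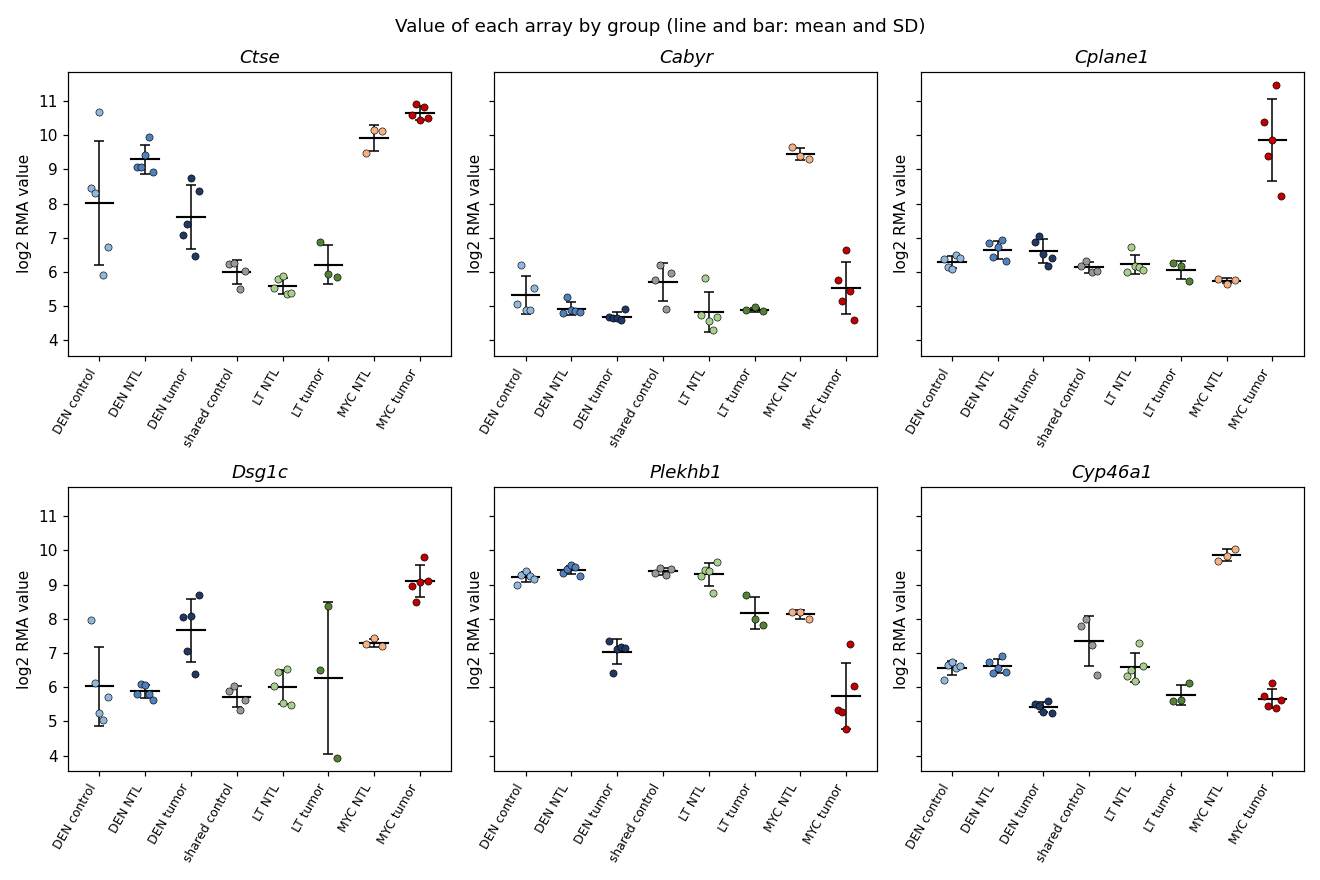
Log2 RMA value (y axis) of each of the 6 members on each array, by group (x axis), with 1 point per array and a line and bar for mean and SD. Ctse is high in both MYC groups and DEN NTL, Cabyr and Cyp46a1 are high in MYC NTL, Cplane1 and Dsg1c are highest in MYC tumors, and Plekhb1 is lowest in MYC tumors.

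**Figure D2:**
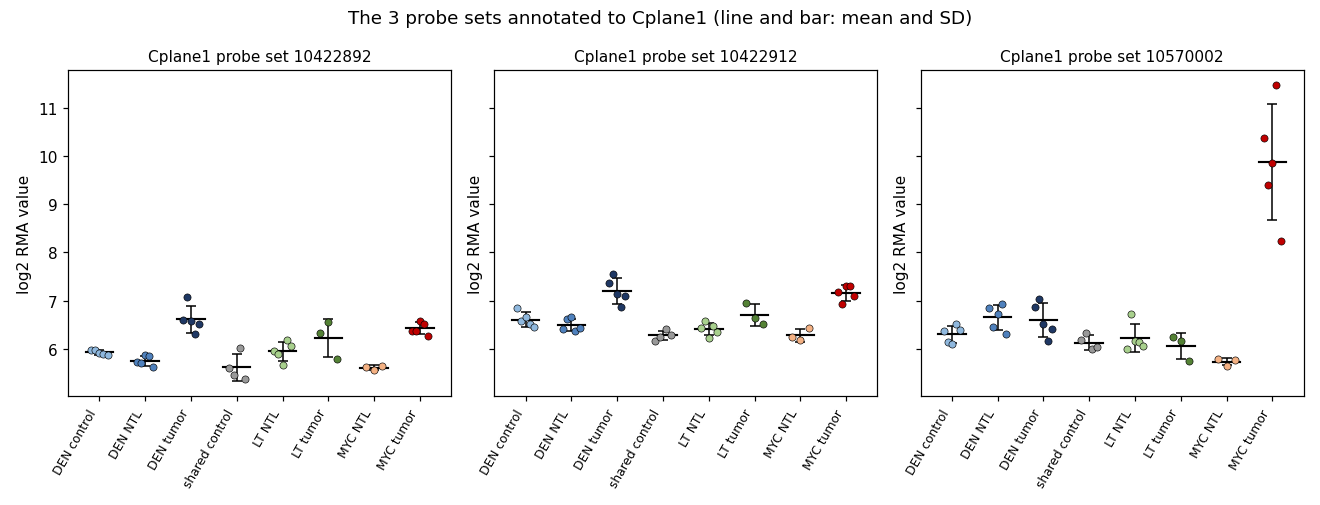
Log2 RMA value (y axis) of the 3 probe sets annotated to Cplane1, by group (x axis), with 1 point per array and a line and bar for mean and SD. MYC tumors reach 8.23 to 11.47 on probe set 10570002 and stay between 6.28 and 7.31 on the other 2.

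Counted together, 4 of 6 members differed by at least 2 log2 units between MYC tumors and shared controls, 3 of 6 between MYC NTL and shared controls and 4 of 6 between MYC tumors and MYC NTL. Over all genes, 0.829%, 0.345% and 0.845% did so. Arrays of the groups did not overlap for 5, 6 and 6 of the 6 members in these comparisons, where 17.5%, 22.1% and 26.9% of all genes did not overlap. The members were chosen on these contrasts, so nothing is read from the counts. They give only the scale on which the 6 stand.

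The DEN and LT experiments give comparisons that the choice of members did not use, and there the members could be tested with limma across all genes. Between DEN tumors and DEN NTL, 4 of 6 members passed an adjusted p of 0.05, 1 higher and 3 lower, where 32.2% of all genes passed. Plekhb1 fell by 2.39 ± 0.27 on the log2 scale (adjusted p = 5.16e-08), and all 5 tumors lay below all 5 NTL arrays. Cyp46a1 fell by 1.19 ± 0.21 (adjusted p = 5.78e-05), also with no overlap. Both genes were thus lower in DEN tumors, as they were in MYC tumors. Ctse fell by 1.68 ± 0.51 (adjusted p = 0.0112) with no overlap between the groups, whereas MYC tumors lay above MYC NTL by 0.73 ± 0.58. Dsg1c, the desmosomal cadherin, rose by 1.78 ± 0.53 (adjusted p = 0.00994), a 3.44-fold change with no overlap. Cabyr differed by -0.23 ± 0.29 (adjusted p = 0.579), which does not show that its levels were equal.

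Cplane1 differed between DEN tumors and DEN NTL by -0.05 ± 0.31 (adjusted p = 0.922) by the probe set used. By the other 2 probe sets it rose, by 0.86 ± 0.13 and 0.71 ± 0.11 (adjusted p over all probe sets 7.57e-06 and 9.36e-06), and by the mean of the 3 it rose by 0.51 (adjusted p = 0.00841). Those rises in DEN tumors are close in size to the 0.81 and 0.88 of the same probe sets in MYC tumors against MYC NTL. Against DEN controls the same pair of probe sets rose in DEN tumors by 0.69 and 0.60 (adjusted p over all probe sets 0.000138 and 7.65e-05), while probe set 10570002 differed by 0.30 (adjusted p = 0.524). In LT tumors against LT NTL they differed by 0.28 and 0.29 and did not pass (adjusted p = 0.236 and 0.135).

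Between DEN NTL and untreated DEN controls no member passed in limma, and 1 of 6, Ctse, had an unadjusted p under 0.05. Over all genes 0.197% passed. Ctse was higher in NTL by 1.27 ± 0.51 (adjusted p = 0.405). Without DEN control replicate 3, the array with high Xist and the highest Ctse of its group, the difference was 1.93 (adjusted p = 0.0302), and Ctse passed. Without DEN control replicate 4, the array with the lowest Ctse of its group, the difference was 0.75. Ctse passed in only 1 of 15 alternative fits, with adjusted p up to 0.676, so the value moved both ways with single controls. The other members had adjusted p values from 0.719 to 0.965.

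Between DEN tumors and DEN controls, 1 member rose and 2 fell, where 30.7% of all genes passed. Plekhb1 fell by 2.18 ± 0.27 (adjusted p = 1.95e-07) and Cyp46a1 by 1.14 ± 0.21 (adjusted p = 9.34e-05), both without overlap. Dsg1c rose by 1.64 ± 0.53 (adjusted p = 0.0175), although its arrays overlapped through the control at 7.96. That call did not hold when only these groups were fitted (adjusted p = 0.0579), nor without DEN control replicate 3 (0.0530) or 4 (0.0609) or DEN tumor replicate 5 (0.0617). Ctse differed by -0.40 ± 0.51 (adjusted p = 0.613), by 0.26 without DEN control replicate 3 and by -0.93 without DEN control replicate 4. Cabyr differed by -0.62 (adjusted p = 0.106).

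Between LT tumors and LT NTL, no member rose and 2 of 6 fell, where 20.4% of all genes passed. Plekhb1 fell by 1.14 ± 0.31 (adjusted p = 0.00884), a 2.21-fold change, and every tumor lay below every NTL array. Cyp46a1 fell by 0.81 ± 0.25 (adjusted p = 0.0175), without overlap. The Cyp46a1 call did not hold in a fit of these groups alone (adjusted p = 0.0918), with tumors of a shared mouse stem averaged (0.105), or without LT NTL replicate 4 (0.0568), LT tumor replicate 1 (0.115) or LT tumor replicate 2 (0.0767). Dsg1c differed by 0.27 (adjusted p = 0.812) over tumors that ran from 3.92 to 8.36. Without LT tumor replicate 2 that difference was -0.78 and without replicate 3 it was 1.44, neither past the threshold. Ctse differed by 0.63 (adjusted p = 0.5), Cabyr by 0.07 (adjusted p = 0.909) and Cplane1 by -0.16 (adjusted p = 0.802).

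Plekhb1 and Cyp46a1 were lower in tumors than in NTL of the DEN and LT models by test and of the MYC model by description. For Plekhb1 the DEN change was the larger, by -1.25 ± 0.41 against the LT change (adjusted p = 0.0408). This call was lost in 9 of 24 alternative fits, over which the difference ran from -1.42 to -0.98. The highest adjusted p, 0.15, came without LT tumor replicate 1. The others that lost it were the averaging of tumors of a shared stem, and the fits without DEN NTL replicate 1, 2, 3 or 4, DEN tumor replicate 2, or LT NTL replicate 1 or 4. For Ctse the DEN change minus the LT change was -2.30 ± 0.77 (adjusted p = 0.0442), a call that was lost in 16 of 24 alternatives, with adjusted p up to 0.128 without LT tumor replicate 1 and 0.0742 with the replicate number as a block. For Dsg1c the difference of 1.52 ± 0.81 did not pass (adjusted p = 0.226), though it did at 2.56 without LT tumor replicate 2 (adjusted p = 0.0211).

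**Figure D3:**
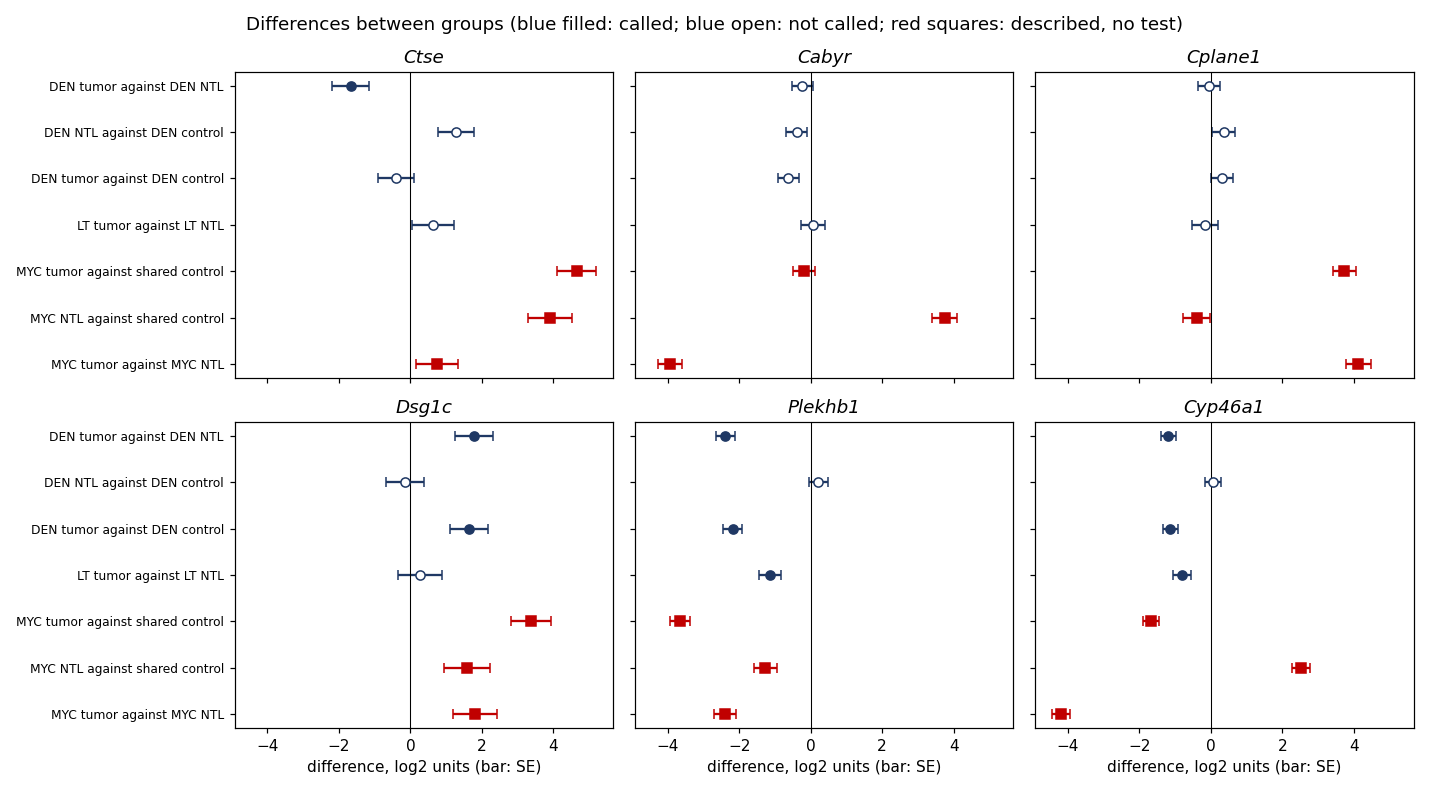
Difference between 2 groups in log2 units (x axis, bar for SE) for each member in 7 comparisons (y axis). Filled blue points passed limma's adjusted p of 0.05 and open ones did not, and red squares are MYC comparisons, described with no test. Plekhb1 is left of 0 in every comparison with tumors, from -1.14 in LT to -3.66 in MYC tumors against shared controls.

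Markers of liver cell types were read beside Plekhb1. Over all genes, 32.2% passed in DEN tumors against NTL, 20.4% in LT tumors against NTL and 20.5% in MYC tumors against shared controls. Of 7 hepatocyte markers, 3 fell and 1 rose in DEN tumors against NTL, and 2 fell in LT tumors against NTL. In MYC tumors 1 fell against shared controls and 3 against MYC NTL. In DEN tumors against NTL, 6 of 6 Kupffer cell markers (resident macrophages) fell, and the mean over the list was 6.32 to 7.48 in tumors against 8.27 to 9.25 in NTL. In LT tumors 2 of 6 fell, with list means of 6.29 to 8.87 against 7.84 to 8.56 in NTL. In MYC tumors 2 of 6 were lower than in shared controls, the scavenger receptors Cd163 by -1.98 (adjusted p = 0.000393) and Marco by -0.71 (adjusted p = 0.0494), with list means of 6.41 to 7.80 against 7.93 to 8.50. In MYC NTL no Kupffer cell marker passed, and the list mean was 7.81 to 7.98. Stellate cell markers, those of the vitamin A storing cells such as Lrat and Reln, fell for 5 of 6 in MYC tumors against shared controls, with list means of 7.0 to 8.17 against 8.54 to 8.88. In DEN tumors against NTL, 2 of 6 stellate markers fell and 1 rose, and in LT tumors 2 rose and none fell. The part of these cells in the Plekhb1 values was not tested, and in bulk tissue fewer cells of a type and less RNA per cell cannot be told apart. No Kupffer or stellate cell marker was below the array's first quartile in any group mean.

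Markers of the tissues in which the other members are best known were read as well. Of 7 gastric and squamous epithelial markers, none passed in either MYC group against shared controls, and the list mean was 4.61 to 4.86 in both MYC groups. Of 5 germ cell markers none passed in these comparisons, and 3 of 5 lay below the first quartile in every group. Of 6 neuronal markers none passed against shared controls, with list means of 4.78 to 5.19 in the MYC groups.

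The other genes of each member's family were counted in the same MYC comparisons. Over all genes, 20.5% passed between MYC tumors and shared controls, 3.83% between MYC NTL and shared controls and 21.8% between MYC tumors and MYC NTL, and the median change over all genes was -0.02, -0.001 and -0.03. The median changes of the lists below are differences on the same log2 scale. Between MYC tumors and MYC NTL, 0 rose and 1 fell in the Ctse list, and 1 rose and 1 fell in the Cabyr list. In the Cplane1 list 4 rose and 0 fell, in the Dsg1c list 2 and 0, and in the Plekhb1 list 3 and 3.

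Among 16 measured cathepsins and aspartic proteases other than Ctse, none rose and 3 fell in MYC tumors, with a median of -0.09. Those were Ctsc, which activates granule serine proteases, at -1.75 ± 0.48 (adjusted p = 0.00820), the aspartic protease Bace2 at -0.67 (adjusted p = 9.45e-05) and Ctso at -0.49 (adjusted p = 0.000279). None passed in MYC NTL, where the median was 0.02. The Ctse difference of 4.65 had no called counterpart of its direction in its family in this fit. Without MYC tumor replicate 1, 1 of the 16 passed as higher.

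Among 17 measured sterol hydroxylases and oxysterol response genes other than Cyp46a1, none rose and 3 fell in MYC tumors against shared controls, with a median of -0.10. Cyp8b1, the bile acid 12-alpha-hydroxylase, fell by 2.63 ± 0.73 (adjusted p = 0.00979). Mylip, the oxysterol-induced ubiquitin ligase of the LDL receptor, fell by 1.13 (adjusted p = 0.000326), and Srebf1, the regulator of lipid synthesis, by 0.93 (adjusted p = 0.00523). In MYC NTL none of the 17 passed, with a median of -0.01. With only the compared groups fitted 2 passed as higher there, and without shared control replicate 4, 1 did. Between MYC tumors and MYC NTL, where Cyp46a1 differed by -4.19, none of the 17 rose and 4 fell, with a median of -0.32. Over all genes 21.8% passed there. In alternative fits the number that fell ran from 1 to 5, and up to 1 rose.

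Among 13 genes of the sperm fibrous sheath and its partners, 2 rose in MYC tumors, Spa17 by 0.51 (adjusted p = 0.0209) and Odf2 by 0.27 (adjusted p = 0.0373), and none passed in MYC NTL, where Cabyr was high. The 2 calls were not stable: none remained without shared control replicate 4 or without MYC tumor replicate 2, and 1 in 5 other alternatives, those without shared control replicates 1 or 3, without MYC tumor replicates 3 or 4, or with only the compared groups. In MYC NTL against shared controls, 1 of the 13 passed as higher in 4 alternatives. In every group 7 of the 13 were below the array's first quartile.

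Among 15 desmosome genes other than Dsg1c, the cytolinker Ppl rose by 1.59 ± 0.37 in MYC tumors against shared controls (adjusted p = 0.00231) and by 2.00 against MYC NTL (adjusted p = 0.000585). Jup, plakoglobin, fell by 0.45 against shared controls (adjusted p = 0.00428). In MYC NTL the plakophilin Pkp2 fell by 0.65 (adjusted p = 0.00620), and the median over the list was -0.01. In DEN tumors against NTL, Dsg1c rose and 32.2% of all genes passed. There 6 of the 15 rose and none fell, with a median of 0.03.

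Among 18 pleckstrin homology family genes other than Plekhb1, 3 rose and 3 fell in MYC tumors. The closest paralog, Plekhb2, fell by 2.15 ± 0.17 in MYC tumors (adjusted p = 2.13e-10) and by 0.95 ± 0.20 in MYC NTL (adjusted p = 0.00360), against shared controls. It was the only 1 of the 18 to pass in MYC NTL in the fit over all arrays, and both steps had the direction of Plekhb1, at -3.66 and -1.27. Plekhh2 fell by 1.10 (adjusted p = 1.14e-06) and Plekhh1 rose by 0.90 (adjusted p = 9.86e-05) in MYC tumors. Without shared control replicate 3, 1 of the 18 passed as higher, and with only the compared groups fitted 5 passed as lower in tumors and 3 in NTL.

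Among 21 genes of the CPLANE complex, the IFT-A complex and the ciliary transition zone, 6 rose and none fell in MYC tumors against shared controls, with a median of 0.07. Ofd1, a centriolar protein, rose by 0.53 (adjusted p = 0.00113), the CPLANE subunit Intu by 0.46 (adjusted p = 0.00127) and the IFT-A subunit Wdr35 by 0.42 (adjusted p = 0.0106). In 5 alternatives at least 1 of the 21 passed as lower, and 2 did so without MYC tumor replicate 2 or 3. In MYC NTL none passed, with a median of -0.04. For Cplane1 the difference between MYC tumors and shared controls was 0.81 and 0.88 by probe sets 10422892 and 10422912, and 3.73 by probe set 10570002.

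The 3 nearest measured genes on each side of every member, 36 in all, were read for differences that reach past the member. Of them, 4 rose and 2 fell in MYC tumors against shared controls, and 2 rose and none fell in MYC NTL. Against the 20.5% and 3.83% of all genes that passed in these comparisons, these shares are near the background, and the neighbours named below are a description of single genes. Near Ctse, Pm20d1, an enzyme that makes N-acyl amino acids, rose in MYC tumors by 0.91 ± 0.18 (adjusted p = 0.000550) and in MYC NTL by 0.86 ± 0.21 (adjusted p = 0.0155). Fam72a, also near Ctse, rose by 1.31 ± 0.21 in tumors (adjusted p = 2.30e-05) and differed by 0.08 in NTL, and Srgap2 rose by 0.51 in tumors (adjusted p = 0.0281). Near Cabyr, the laminin chain Lama3 rose in MYC NTL by 1.09 ± 0.29 (adjusted p = 0.0259) and differed by 0.13 in tumors (adjusted p = 0.775). Ttc39c, between Lama3 and Cabyr in the gene order, differed by 1.05 ± 0.47 in NTL (adjusted p = 0.238), and Osbpl1a rose by 0.25 in tumors (adjusted p = 0.0410). Arhgef17 near Plekhb1 fell by 0.57 (adjusted p = 0.0125) and Hhipl1 near Cyp46a1 by 0.55 (adjusted p = 0.0151) in tumors. No neighbour of Cplane1 or Dsg1c passed against shared controls. The Cplane1 neighbours lie beside the gene on chromosome 15, whereas 8 of the 10 identifiers nearest to probe set 10570002 lay on chromosome 8. Whether these neighbours flank what that probe set reads was not tested, so nothing is read from them for its signal. The neighbours of Dsg1c included the desmosomal cadherins Dsc2, Dsc3, Dsg1b, Dsg3 and Dsg4. Dsg1b differed by 0.13 in tumors (adjusted p = 0.486) and by -0.06 in NTL (adjusted p = 0.908). Between MYC tumors and MYC NTL, 3 of the 36 rose and 5 fell, near the 21.8% of all genes. Near Ctse, Fam72a rose by 1.23 (adjusted p = 0.000182) and Srgap2 by 0.98 (adjusted p = 0.000206). Near Cabyr, Ttc39c fell by 1.51 (adjusted p = 0.0142), Lama3 by 0.96 (adjusted p = 0.0119), and Impact rose by 1.00 (adjusted p = 0.000480). Gdnf near Cplane1 fell by 0.30 (adjusted p = 0.00452), 4921533I20Rik near Dsg1c by 0.24 (adjusted p = 0.0326) and Arhgef17 near Plekhb1 by 0.51 (adjusted p = 0.0418). The calls were few and moved with single arrays: none of the NTL calls remained without MYC NTL replicate 1, 2 or 3, and 1 without shared control replicate 1. The calls higher in tumors fell to 2 without shared control replicate 3 or 4 or MYC tumor replicate 5. The lower ones fell to 0 without shared control replicate 3 or in a fit of the compared groups, and to 1 without shared control replicate 1 or 2 or MYC tumor replicate 5. Between MYC tumors and MYC NTL the 5 lower calls became 3 without MYC NTL replicate 1 or 2 or MYC tumor replicate 5, and 2 without MYC NTL replicate 3.

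**Figure D4:**
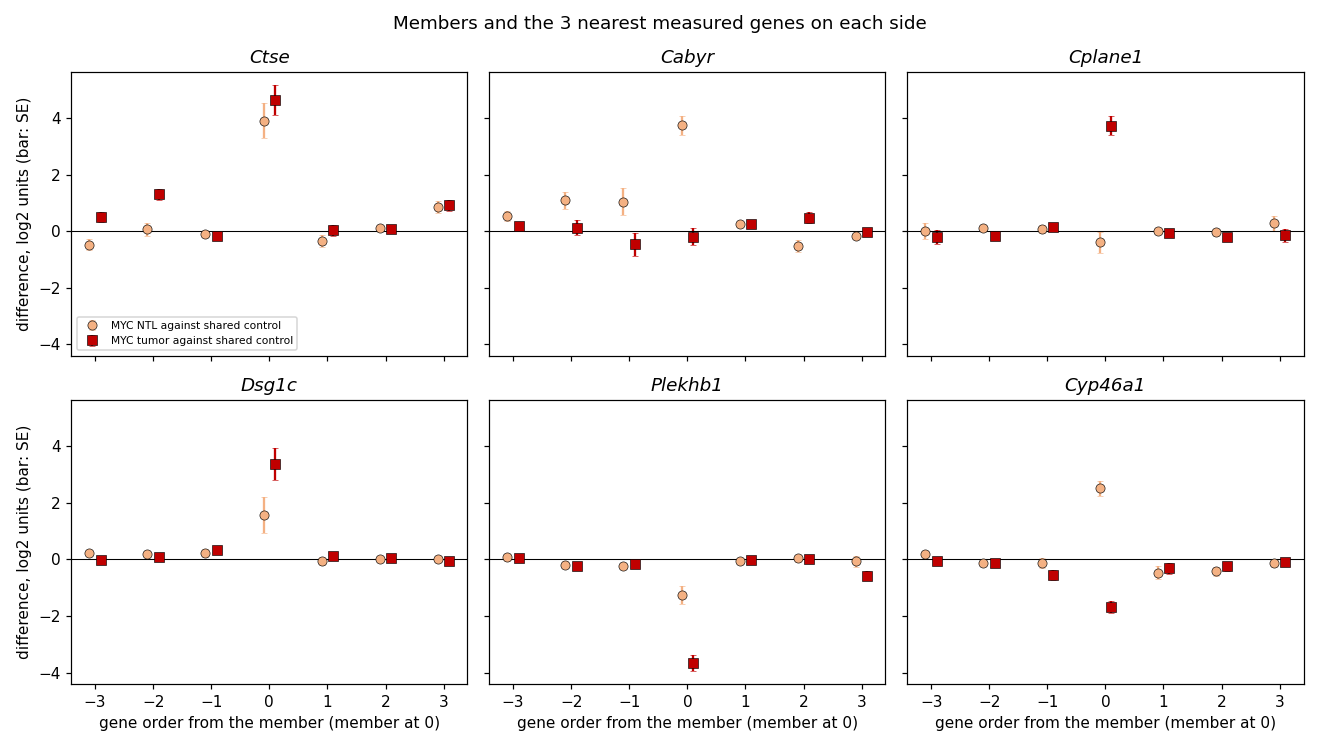
Difference from shared controls in log2 units (y axis, bar for SE) for each member, at position 0, and the 3 nearest measured genes on each side in gene order (x axis), in MYC NTL (circles) and MYC tumors (squares). Apart from the members, the points lie between -0.57 (Arhgef17, MYC tumors) and 1.31 (Fam72a, MYC tumors). The Cplane1 point is from probe set 10570002, and whether it reads the gene on chromosome 15 beside these neighbours was not tested.

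Reference genes that differ between mouse strains were read beside the members. H2-Ea, the class II chain that several mouse haplotypes lack, read 4.32 to 4.75 in shared controls, 3.97 to 4.67 in LT NTL and 4.07 to 4.90 in LT tumors. In MYC NTL it read 7.77 to 8.63, in MYC tumors 8.85 to 9.65, and in the DEN groups 8.17 to 10.67. The groups split without overlap into a low set, the shared controls and LT livers, and a high set, the MYC and DEN livers. Against shared controls H2-Ea was higher by 4.72 ± 0.34 in MYC tumors (adjusted p = 4.49e-11) and by 3.58 ± 0.39 in MYC NTL (adjusted p = 5.74e-07). The shared controls are thus unlike the MYC livers at a gene that differs between mouse haplotypes, and model and mouse background cannot be told apart in a comparison of the MYC groups with these controls. Hc, complement C5, which some inbred strains lack, read 11.60 to 12.59 on every array. Nnt, deleted in part in C57BL/6J mice, did not pass in either MYC comparison (-0.48 and -0.51, adjusted p = 0.137 and 0.33). By its brightest probe set its values were 10.46 to 10.90 in the DEN groups and 9.64 to 10.18 in the MYC groups, without overlap. Shared controls (9.71 to 10.74) and LT NTL (9.07 to 10.68) ranged across both levels. On the second Nnt probe set the DEN groups (6.23 to 6.75) and the MYC groups (6.1 to 6.55) overlapped. The DEN and MYC livers, both high for H2-Ea, thus differed at Nnt by the brightest probe set only.

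Ctse divided the groups in part as H2-Ea did. Shared controls and LT livers read 5.36 to 6.86, and MYC livers 9.47 to 10.92, but the DEN groups, all high for H2-Ea, ran from 5.92 to 10.67 for Ctse. Cabyr and Cyp46a1 were high in MYC NTL and not in DEN livers or MYC tumors, Cplane1 in MYC tumors and not in MYC NTL, and Dsg1c and Plekhb1 differed in tumors of the DEN model as well. The part of mouse background in these values was not tested.

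**Figure D5:**
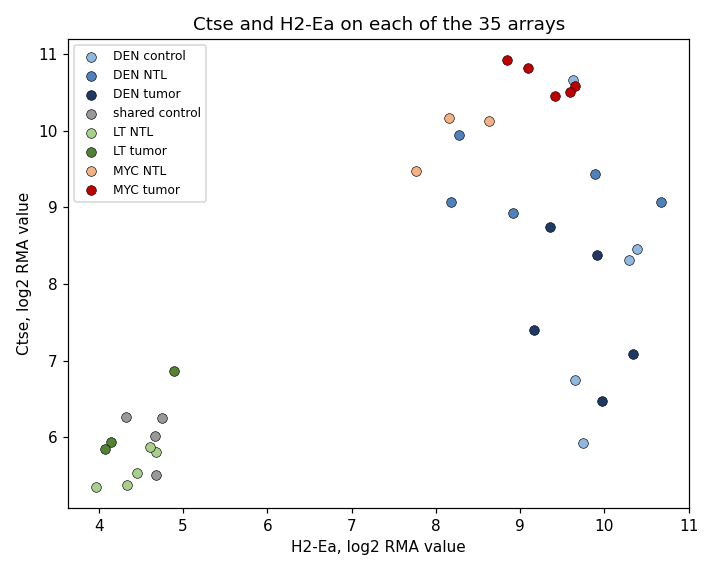
Log2 RMA value of Ctse (y axis) against that of H2-Ea (x axis) on each of the 35 arrays, coloured by group. Shared control and LT arrays lie at the lower left with H2-Ea up to 4.90, MYC arrays at the upper right, and DEN arrays are spread over Ctse values of 5.92 to 10.67.

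MYC itself was read by the mouse Myc probe set, which averaged 7.83 ± 1.15 (SD, n = 4) in shared controls, 7.72 ± 1.58 (SD, n = 3) in MYC NTL and 9.65 ± 0.58 (SD, n = 5) in MYC tumors. MYC tumors ran from 8.88 to 10.52, and the highest array was 9.56 in shared controls and 9.48 in MYC NTL. It was 9.95 in DEN controls, 9.80 in LT NTL, 9.25 in LT tumors, 8.95 in DEN tumors and 7.97 in DEN NTL. Whether this probe set also reads the transgene was not tested. Of 18 known MYC target genes, 12 rose and none fell in MYC tumors against shared controls, with a median of 0.45. Over all genes 20.5% passed there. Against MYC NTL 9 rose and 1 fell, where 21.8% passed. In DEN tumors against NTL 6 rose and none fell, where 32.2% passed. In LT tumors against NTL 1 rose and 3 fell, where 20.4% passed. In MYC NTL against shared controls 3.83% of all genes passed. There 1 of 18 targets rose, the nucleolar GTPase gene Gnl3 by 0.53 (adjusted p = 0.0370), with a median of 0.19. That call was lost without any 1 of the MYC NTL replicates 1, 2 and 3 and without shared control replicate 1, 2 or 3.

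As a description over the 35 arrays, which share groups and normalization, the genes most like each member were taken by Pearson's r. Cabyr ran with the sperm gene Adam2 (r = 0.906), 9130230L23Rik (0.892) and Acsm2 (0.835), all highest in MYC NTL. Adam2 stood at 4.64 there and between 3.48 and 3.62 in the other groups, close to the lower limit of the arrays. Cyp46a1 ran with Abhd1 (0.865), Lrrc28 (0.861) and Hyi (0.829), and Abhd1 averaged 9.72 in MYC NTL against 7.63 in shared controls. The 2 members high in MYC NTL had an r of 0.82 with each other. That r rests on the MYC values for which both were chosen, so nothing is read from it.

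Cplane1, by probe set 10570002, ran with the adhesion receptor gene Adgrb3 (0.922), Mab21l4 (0.904) and Taf1d (0.885), which were higher in MYC tumors than in shared controls by 2.10, 1.84 and 1.42. Dsg1c ran with Rpl12 (0.847), Vars (0.845) and Rpl10a (0.829), genes of ribosomal proteins and a transfer RNA synthetase, higher in MYC tumors by 0.76, 0.79 and 0.59. Plekhb1 ran with the autophagy gene Atg7 (0.909), the macrophage folate receptor Folr2 (0.871) and Gdf10 (0.870), and Folr2 was lower by 2.66 in MYC tumors. Ctse had the weakest partners, Cage1 (0.766), the interferon-inducible Ifi202b (0.757) and Tnpo2 (0.739). Ifi202b averaged 3.08 to 3.14 in shared controls and LT livers and 4.16 to 5.40 in DEN and MYC livers. Between members, Dsg1c and Plekhb1 had an r of -0.756 and Dsg1c and Cplane1 of 0.678, again over arrays that include the MYC values used to choose them.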

How the data were processed

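The deposited values are log2 expression values that the authors made with RMA (background correction, quantile normalization and probe set summary), per the submitters' processing notes. The RMA version is not given in the sources used here. Quantile normalization forces arrays to 1 distribution, so the values are relative levels. The 35556 probe sets split into 21218 annotated to a single symbol, 1881 to more than 1 and 12457 unnamed. They gave 18820 genes, with the brightest probe set over all arrays taken for the 1386 genes with several. RefSeq names matched 18805 of the 18820.

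Groups were taken from the labels. The fit was made with limma 3.58.1 in R 4.3.3, with 1 mean for each group fitted to the 35 arrays together, eBayes moderation, and p-values adjusted by Benjamini-Hochberg across 18820 genes, called under 0.05. Errors beside differences are SE of this fit. The fit was tested on simulated data. Arrays carry no count of reads; precision rests on how many arrays a group has. The members, the gene lists and the tests were chosen with earlier results of these data known. Named genes are the members and all their probe sets, the 3 genes with the highest r per member, the 3 neighbours on each side, up to 3 called genes per family list with the largest change against shared controls, reference genes and markers that moved with a member. The p-values measure the spread between arrays. No 2 arrays were identical (highest r = 0.9947). Replicate numbers of the labels do not mark the same animals, and deviations of same-numbered arrays correlated at -0.121 to 0.2, so the numbers were not taken as pairs. Pairing of tumor and NTL arrays by mouse identifier was not part of any fit.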

Additional observations from a re-analysis of the deposited data

Results flagged for a closer look

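In 36 sets of a member in a group of 4 or 5 arrays, 4 had an array far from the others by Dixon's criterion, where chance gives about 1 in 20. Cabyr read 5.266 on DEN NTL replicate 2 against 4.785 to 4.88 on the others. LT NTL replicate 2 stood out for both Cabyr, at 5.835 against 4.315 to 4.725, and Cplane1, at 6.721 against 6.002 to 6.168. It is also the LT array with low Xist, at 5.88. Plekhb1 read 6.42 on DEN tumor replicate 2 against 7.123 to 7.344 on the other DEN tumors.

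The change from NTL to tumor differed between the DEN and LT models for Ctse, by -2.302 (adjusted p = 0.0442, limma), and for Plekhb1, by -1.245 (adjusted p = 0.0408). Ctse was lower in DEN tumors by 1.68 and differed by 0.63 in LT tumors, while Plekhb1 fell in both. Most alternative fits lost the Ctse call.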

How the results depend on the processing

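Over single-array omissions the number of members past the threshold was 1 to 2 in LT tumors against NTL and 0 to 1 in DEN NTL against controls. It was 1 for LT tumors when only the compared groups were fitted and when tumors of a shared mouse stem were averaged. Cplane1 in DEN tumors against NTL, -0.05 by its brightest probe set, was 0.505 by the mean of its probe sets and 0.857 and 0.707 by the other 2, chosen after the probe sets were seen to differ. With the mean, Cplane1 in MYC tumors was 1.81 above shared controls and 1.94 above MYC NTL, so 3 of 6 members then reached 2 log2 units there. Centring each array on its median and filtering dim genes changed no member call. The replicate number as a block changed no member call either, with 4 members in DEN tumors against NTL and 2 in LT tumors against NTL, but it ended the Ctse difference between models (-2.08, adjusted p = 0.0742). Those tests of the difference between models were added after the data were seen. Among alternative counts over the gene lists, 616 stayed within 1.5 times and 86 did not. Groups of 3 to 5 arrays, tumors that share animals and 1 array platform limit all values.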

Other observations

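Within the groups that hold arrays with both high and low Xist, Cabyr was lower where Xist was high in 2 of 3. In the shared controls it read 4.91 on replicate 3, with Xist at 12.2, and 5.75 to 6.21 on the others. In LT NTL it read 5.83 on replicate 2, with Xist at 5.88, and 4.31 to 4.73 on the 4 with high Xist. In the DEN controls the array with high Xist, replicate 3, read 4.89, level with the lowest of the others, which ran up to 6.21. The MYC arrays all had low Xist, yet Cabyr ran from 4.59 to 6.64 in the tumors and from 9.31 to 9.65 in NTL. The part of sex in the Cabyr values was not tested.

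Erythroid Klf1 was the only 1 of 4 measured erythroid markers to pass in MYC NTL against shared controls, at 0.87 (adjusted p = 0.0235, limma). Over all genes 3.83% passed there. These are the arrays in which Cabyr and Cyp46a1 were high, and a link of Klf1 to either member was not tested.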
